A study of Mus musculus with 6 samples.

Results

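The genes described here are the Hippo pathway, its coactivators and DNA-binding partners, and genes listed as targets of YAP and TEAD. They were listed from pathway knowledge, and 34 of the 35 listed genes were measured by an array feature naming that gene alone, out of 19938 measured genes. Stk3 had no such feature and was not analysed here. Of several features of a gene, that with the highest mean signal was taken.

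Embryos of the CD1 strain, an outbred mouse stock, were collected at embryonic day 5.0 and cultured for 8 hours in cavities of 90 µm diameter (narrow) or of 180 µm diameter (wide). Each group had 3 samples, and each sample was the total RNA of 30 pooled whole embryos, which the design text calls biological replicates. The labels give no genetic change or other treatment for either group, and each sample was hybridized to 1 Affymetrix Mouse Gene 1.0 ST array. The design text contrasts embryos with and without external mechanical cues. Values are log2 signals, so a difference of 1 is a 2-fold change, and array medians lay between 7.62 and 7.67.

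In the Hippo pathway, the kinases Stk3 and Stk4 with the scaffold Sav1 activate the kinases Lats1 and Lats2, which phosphorylate the coactivators YAP (gene Yap1) and TAZ (gene Wwtr1) and keep them out of the nucleus. When the kinases are less active, YAP and TAZ enter the nucleus and switch on genes through the TEAD factors. In cultured cells YAP and TAZ follow cell shape, crowding and tension, and in the preimplantation mouse embryo Yap1 and Tead4 separate trophectoderm from inner cell mass. This control acts mostly on the proteins, so the transcript of a target such as Ccn2 is a more direct readout of YAP activity than that of Yap1 itself.

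No Hippo pathway gene or YAP target passed the test between cavities. By limma with Benjamini-Hochberg adjustment over all 19938 genes, 0 of 34 had an adjusted p under 0.05 (0% of all genes did), and the smallest adjusted p among them was 1.00. Without adjustment 0 of 34 had a p under 0.05, against 3.4% of all genes. Differences, given as narrow minus wide, ran from -0.19 for Nt5e to 0.12 for Ccn2, with 19 above 0 and 15 below. The arrays of the 2 cavities did not overlap for 2 of the 34 genes, against 7.7% of all genes. The 34 differences had a median of 0.0045, and the median over all genes was 0.0011. The size of the difference, regardless of sign, had a median of 0.034 among these genes and of 0.035 over all genes.

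**Figure D1:**
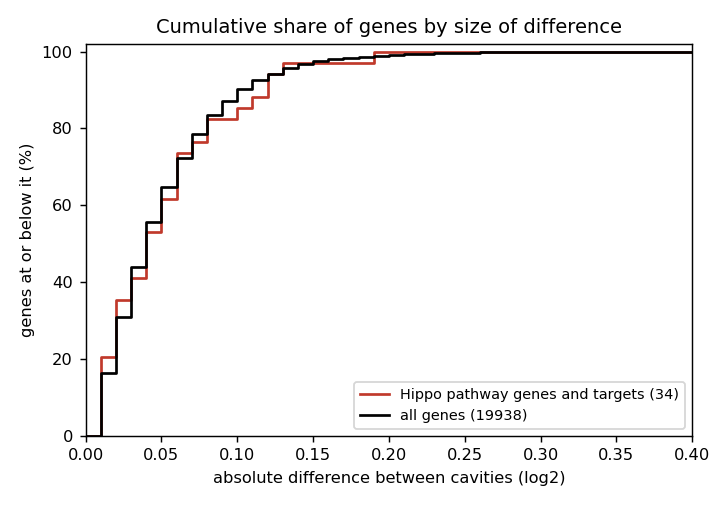
Cumulative share of genes (vertical axis, percent) whose absolute difference between narrow and wide cavities (horizontal axis, log2) is at or below each value, for the 34 Hippo pathway genes and targets (red) and all 19938 genes (black). The lines run close together, with medians of 0.034 and 0.035.

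The precision of the arrays bounds how large a change in array signal could have been missed. The 95% interval of the difference lay inside a 1.2-fold change in either direction for 32 of the 34 genes and inside a 1.5-fold change for all 34. Over all genes these shares were 90.2% and 99.8%. Nt5e and Gadd45a were the exceptions at 1.2-fold, with lower limits of -0.40 and -0.27. A change in a small part of the embryo can be diluted below these limits, because whole embryos were measured. In pools of whole embryos, fewer cells of a type and less RNA per cell cannot be told apart.

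**Figure D2:**
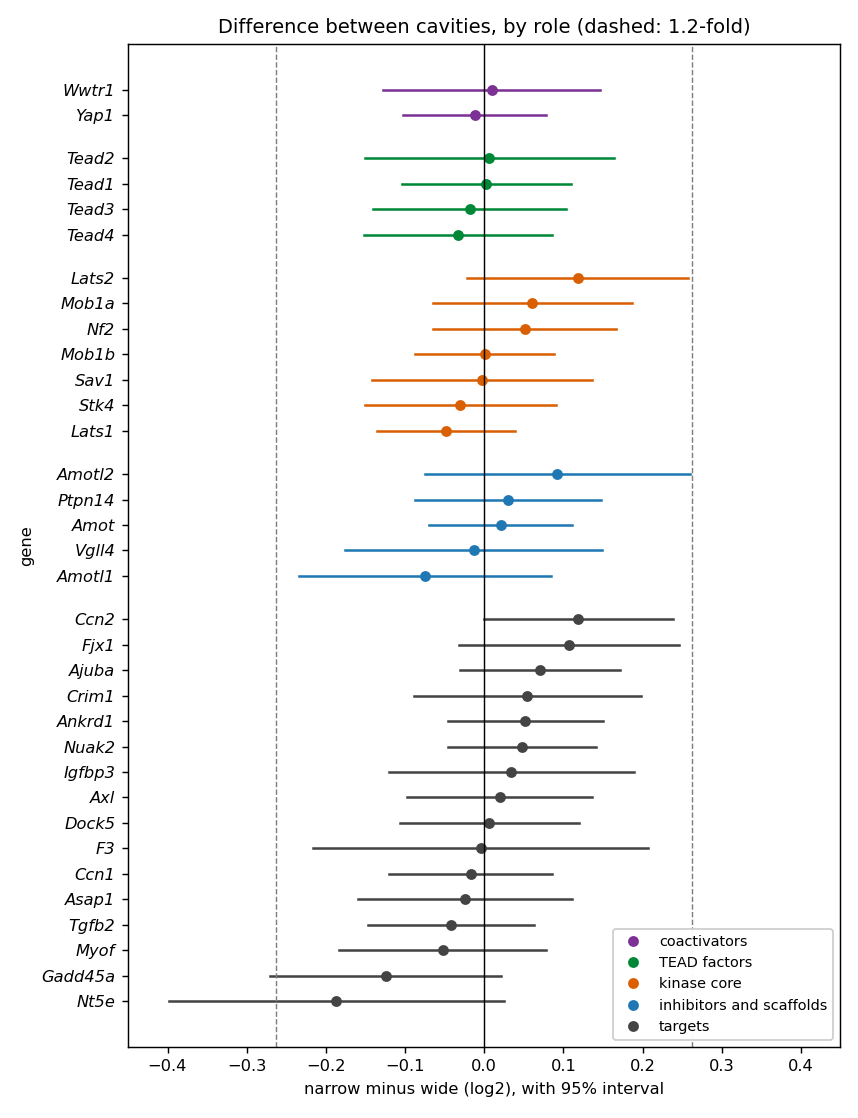
Difference between narrow and wide cavities (horizontal axis, log2, narrow minus wide) for each of the 34 genes, grouped by role and ordered by difference, with points for the limma estimate and lines for its 95% interval. All 34 intervals cross 0, and those of Nt5e and Gadd45a extend beyond the dashed lines at 1.2-fold.

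The coactivators had nearly equal levels in both cavities. Yap1 had signals of 11.63, 11.64 and 11.60 in narrow 1 to 3, against 11.66, 11.61 and 11.65 in wide 1 to 3. The groups overlapped, and all 6 arrays lay within 0.053 of each other, a difference of -0.012 ± 0.039 (SE). Wwtr1 had signals of 10.00, 10.17 and 10.06 in narrow cavities, against 10.03, 10.16 and 10.03 in wide cavities. Its highest array in each cavity was that numbered 2, and the difference was 0.0094 ± 0.060.

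The TEAD factors carry YAP and TAZ to DNA. Tead4, the member needed for trophectoderm, had signals of 11.68, 11.84 and 11.71 in narrow cavities, against 11.77, 11.79 and 11.77 in wide cavities. The narrow arrays lay on both sides of the wide ones. Tead3 had 9.51, 9.67 and 9.62 in narrow cavities, against 9.57, 9.65 and 9.63 in wide cavities. Their differences were -0.033 ± 0.051 and -0.019 ± 0.053. Tead1 and Tead2 differed by 0.0027 ± 0.046 and 0.0062 ± 0.068. The second feature of Tead1 gave 0.0065 ± 0.039.

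Among the 7 measured genes of the kinase core, 4 differences were positive and 3 negative, with a median of 0.00042. Lats2, a kinase of YAP that is itself listed among YAP targets, had signals of 9.04, 9.21 and 9.23 in narrow cavities, against 8.98, 9.10 and 9.04 in wide cavities. Each narrow array lay above the wide array of the same number, but the groups overlapped through narrow 1. The difference was 0.12 ± 0.061, or 1.09-fold, with a 95% interval of -0.022 to 0.26. Its paralog Lats1 had signals of 10.40 in all 3 narrow arrays, against 10.43, 10.45 and 10.47 in wide cavities. Lats1 was the 1 gene of the 34 with all narrow arrays below all wide ones (3.54% of all genes), by a difference of -0.048 ± 0.038 (95% interval -0.14 to 0.038). The 2 Lats genes thus had differences of opposite sign, with both intervals spanning 0.

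The remaining members of the kinase core had differences between -0.030 and 0.061. Nf2, which encodes Merlin, an activator of Lats kinases at the membrane, differed by 0.051 ± 0.050. The Lats cofactors Mob1a and Mob1b differed by 0.061 ± 0.054 and 0.00042 ± 0.038. Stk4 had a difference of -0.030 ± 0.052 and Sav1 one of -0.0028 ± 0.060.

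The angiomotins are junctional scaffolds that bind YAP and, in the blastocyst, activate Lats in inner cells. Amotl2, also listed among YAP targets, had signals of 10.26, 10.49 and 10.50 in narrow cavities, against 10.31, 10.26 and 10.41 in wide cavities. Narrow 2 and narrow 3 were the highest arrays, whereas narrow 1 lay at the lower end of the wide ones, and the difference was 0.092 ± 0.073. It was 0.17 without narrow 1 and 0.051 without narrow 3. Amotl1 had 9.45, 9.58 and 9.62 in narrow cavities, against 9.50, 9.70 and 9.67 in wide cavities. Every narrow array of Amotl1 lay below the wide array of its number, with a difference of -0.075 ± 0.069, and the groups overlapped. Leaving out single arrays gave -0.14 (without wide 1) to -0.023 (without narrow 1). Amot itself differed by 0.021 ± 0.039. Ptpn14, a phosphatase that retains YAP in the cytoplasm, differed by 0.030 ± 0.051, and Vgll4, which competes with YAP for TEAD factors, by -0.013 ± 0.071.

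Among the 16 listed targets, 9 differences were positive and 7 negative, with a median of 0.013. Ccn1 and Ccn2, which encode secreted matricellular proteins and are widely used YAP reporters, had differences of opposite sign, and the contrast between them was not tested. Ccn2 had signals of 10.67, 10.65 and 10.70 in narrow cavities, against 10.63, 10.46 and 10.57 in wide cavities. It was the 1 gene of the 34 with all narrow arrays above all wide ones (4.17% of all genes), and wide 2 was its lowest array. Ccn2 averaged 10.67 ± 0.025 in narrow and 10.55 ± 0.086 in wide cavities (SD, n = 3 each). The difference was 0.12 ± 0.052, or 1.09-fold, with a 95% interval from just below 0 to 0.24. Without wide 2 the difference was 0.072. Ccn1 had 11.28, 11.28 and 11.29 in narrow cavities, against 11.24, 11.36 and 11.30 in wide cavities. Its narrow arrays lay inside the range of the wide ones, with a difference of -0.017 ± 0.045.

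Ankrd1, an ankyrin repeat protein and another common YAP reporter, had signals of 8.14, 8.15 and 8.09 in narrow cavities, against 8.11, 8.08 and 8.03 in wide cavities. Each narrow array exceeded the wide array of its number, the groups overlapped, and the difference was 0.052 ± 0.043. Fjx1, related to the Drosophila gene four-jointed, had 9.28, 9.40 and 9.45 in narrow cavities, against 9.20, 9.25 and 9.36 in wide cavities. It had the same order within each number, with a difference of 0.11 ± 0.060 (95% interval -0.032 to 0.25). In all, 7 of the 34 genes were higher in narrow cavities in 3 of 3 same-numbered pairs (20.6%, against 14.8% of all genes) and 3 were lower in all pairs (8.82%, against 13.9%).

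The targets with the most negative differences were Nt5e and Gadd45a. Nt5e, the ectoenzyme CD73 that makes adenosine from AMP, had signals of 7.19, 7.19 and 7.27 in narrow cavities, against 7.40, 7.61 and 7.20 in wide cavities. Wide 1 and wide 2 stood above the narrow arrays, and wide 3 lay among them. The difference of -0.19 ± 0.092 came with an SD of 0.046 in narrow and 0.20 in wide cavities. Without wide 2 it was -0.084, and without wide 3 it was -0.29. Gadd45a, a growth arrest gene induced by stress, had 8.76, 8.69 and 8.57 in narrow cavities, against 8.71, 8.87 and 8.81 in wide cavities. Narrow 3 was its lowest array and narrow 1 lay above wide 1, so the sign differed between numbers (difference -0.12 ± 0.063). Without narrow 3 the difference was -0.071.

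**Figure D3:**
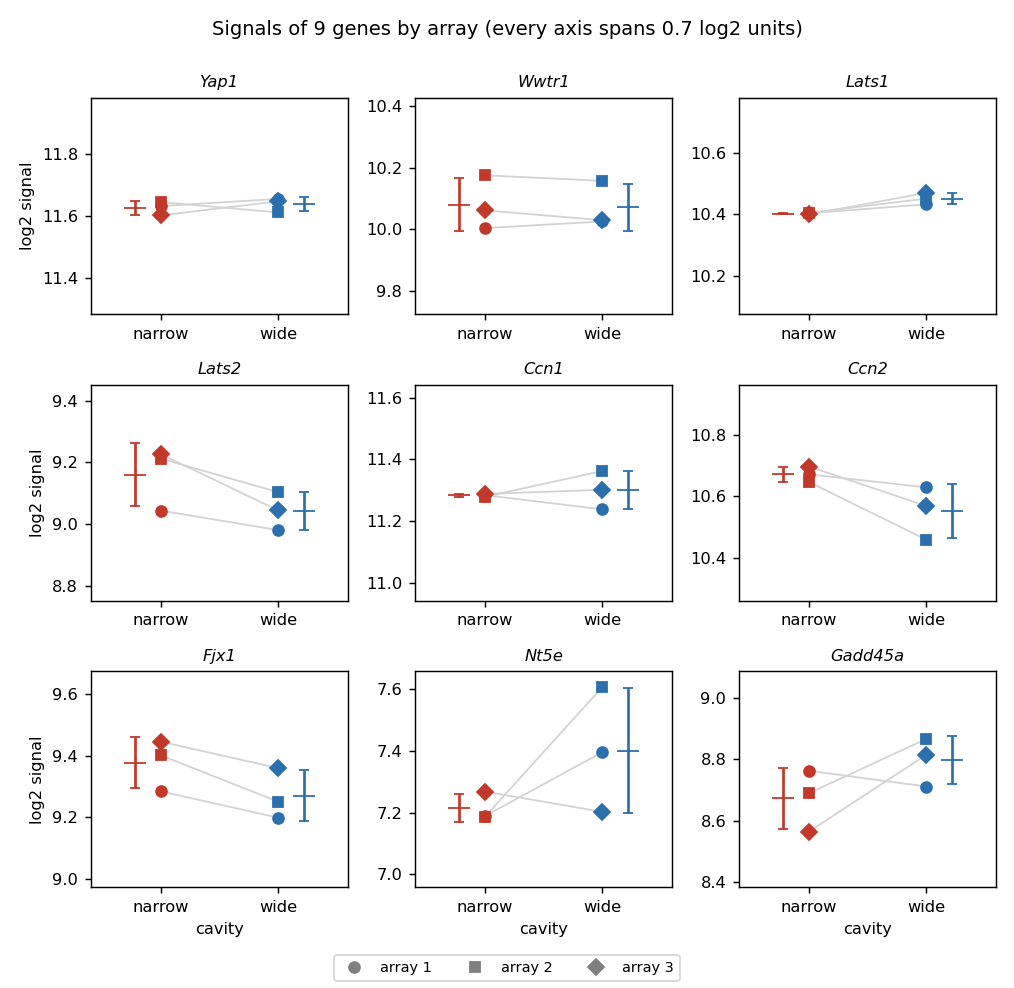
Log2 signal (vertical axis, each spanning 0.7 units) of 9 genes in narrow (red, left) and wide (blue, right) cavities, with a symbol for each array number, grey lines joining arrays of the same number, and bars at the side for mean ± SD of 3 arrays. Only Ccn2 and Lats1 show no overlap between cavities, and the wide arrays of Nt5e spread over 0.40.

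The other targets had differences between -0.053 and 0.070. The highest was that of Ajuba, a LIM protein that restrains Lats kinases, at 0.070 ± 0.044. Crim1, a transmembrane protein that binds BMPs, differed by 0.054 ± 0.062, and the AMPK-related kinase Nuak2 by 0.047 ± 0.040. Igfbp3, a carrier of insulin-like growth factors, differed by 0.034 ± 0.067. Nearer to 0 were the receptor kinase Axl at 0.020 ± 0.051, the Rac activator Dock5 at 0.0067 ± 0.049 and the coagulation trigger F3 (tissue factor) at -0.0044 ± 0.092. The Arf regulator Asap1 stood at -0.024 ± 0.059, the ligand Tgfb2 at -0.042 ± 0.046 and the membrane repair protein Myof at -0.053 ± 0.057. Averaged over the 16 targets, the signal was 9.47, 9.49 and 9.48 in narrow 1 to 3, against 9.46, 9.49 and 9.48 in wide 1 to 3.

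TEAD factors bind the letters GGAATG, and these were searched on both strands (as GGAATG or CATTCC) in the 250 bases before the start of each gene, in RefSeq promoter sequences of build GRCm38.p6. Of the 35 listed genes 27 had a sequence. Of these, 13 held the letters at least once, or 48.1%, against 13.2% of the 15614 measured genes with a sequence. The 13 were 5 of 11 targets and 8 of 16 pathway genes. Lats2, Amotl2 and Ptpn14, also listed as YAP targets, were counted among the pathway genes. Which share is the higher depends on that choice. A match is not a binding site shown in these embryos. The windows below are those of 3 targets and of the scaffold Amotl2, chosen to show where the letters fall, 5′ to 3′ on the strand of the gene, with the matches in capitals. They lie at chr3:145649986-145650235 for Ccn1, chr19:36119845-36120094 for Ankrd1 and chr14:54577662-54577911 for Ajuba, all on the minus strand, and at chr9:102717554-102717803 on the plus strand for Amotl2.
Ccn1: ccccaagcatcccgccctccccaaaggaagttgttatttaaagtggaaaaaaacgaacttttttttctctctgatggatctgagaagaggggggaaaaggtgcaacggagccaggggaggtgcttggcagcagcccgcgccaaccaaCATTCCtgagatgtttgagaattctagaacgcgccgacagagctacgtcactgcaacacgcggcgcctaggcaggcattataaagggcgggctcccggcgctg
Ankrd1: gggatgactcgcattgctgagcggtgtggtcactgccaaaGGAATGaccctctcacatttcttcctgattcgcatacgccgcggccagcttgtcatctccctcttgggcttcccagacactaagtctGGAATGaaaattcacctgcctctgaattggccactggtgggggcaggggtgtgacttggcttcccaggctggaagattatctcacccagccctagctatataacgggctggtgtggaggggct
Ajuba: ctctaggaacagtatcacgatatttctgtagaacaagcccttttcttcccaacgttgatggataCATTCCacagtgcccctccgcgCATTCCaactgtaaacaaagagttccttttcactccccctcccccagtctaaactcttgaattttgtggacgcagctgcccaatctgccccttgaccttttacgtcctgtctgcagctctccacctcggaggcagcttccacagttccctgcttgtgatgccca
Amotl2: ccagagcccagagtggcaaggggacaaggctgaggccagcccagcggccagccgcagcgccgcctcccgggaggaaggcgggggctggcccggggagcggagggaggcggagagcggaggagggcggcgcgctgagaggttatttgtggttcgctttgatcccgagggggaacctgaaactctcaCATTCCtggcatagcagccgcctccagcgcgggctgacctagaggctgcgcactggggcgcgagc

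Ankrd1 and Ajuba each held 2 matches, the 6 letters beginning 210 and 123 bases before the start of Ankrd1 and 186 and 164 bases before that of Ajuba. Ccn1 held 1 match 103 bases before its start and Amotl2 held 1 at 65 bases. Of the 11 targets with a sequence, 5 held the letters: Ccn1, Ankrd1, Ajuba, Axl and Crim1. Their differences ran from -0.017 to 0.070 with a median of 0.052, and 4 of the 5 were positive. The 6 targets without the letters (F3, Myof, Nt5e, Gadd45a, Igfbp3 and Tgfb2) ran from -0.19 to 0.034 with a median of -0.047, and 1 was positive. This contrast was drawn after the values were seen, was not tested and is given as a description. It leaves out Lats2, Amotl2 and Ptpn14, which are also listed as YAP targets but were counted among the pathway genes. Lats2 lacked the letters and differed by 0.12, above all 6 targets without them. Amotl2 and Ptpn14 held the letters and differed by 0.092 and 0.030. Each of the 11 targets had an interval spanning 0, and 50.9% of all genes had positive differences. Ccn2 and Fjx1, the targets with the highest differences, were not among those with a sequence in the table used here. Among regulators, Yap1, Wwtr1, Tead3, Sav1, Mob1a, Ptpn14 and Vgll4 held the letters as well as Amotl2. Differences of these regulators ran from -0.019 (Tead3) to 0.092 (Amotl2). Regulators with a sequence but without the letters ran from -0.075 (Amotl1) to 0.12 (Lats2). Both sets of regulators held differences of either sign, and their ranges overlapped.

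Several genes followed the number of the array more closely than the cavity. F3 had signals of 9.71, 9.41 and 9.58 in narrow cavities, against 9.72, 9.43 and 9.55 in wide cavities. Its arrays of the same number lay within 0.027 of each other, whereas all 6 arrays spanned 0.31. Sav1 had 9.93, 10.08 and 10.06 in narrow cavities, against 9.93, 10.09 and 10.06 in wide cavities. For 10 of the 34 genes (29.4%, against 19.9% of all genes) both arrays numbered 1 lay below the other 4, and for F3 alone (2.94%, against 12.2%) they lay above. The 10 were Wwtr1, Tead3, Sav1, Lats2, Amotl1, Ptpn14, Axl, Myof, Crim1 and Dock5. What the number stands for is not given in the labels.

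**Figure D4:**
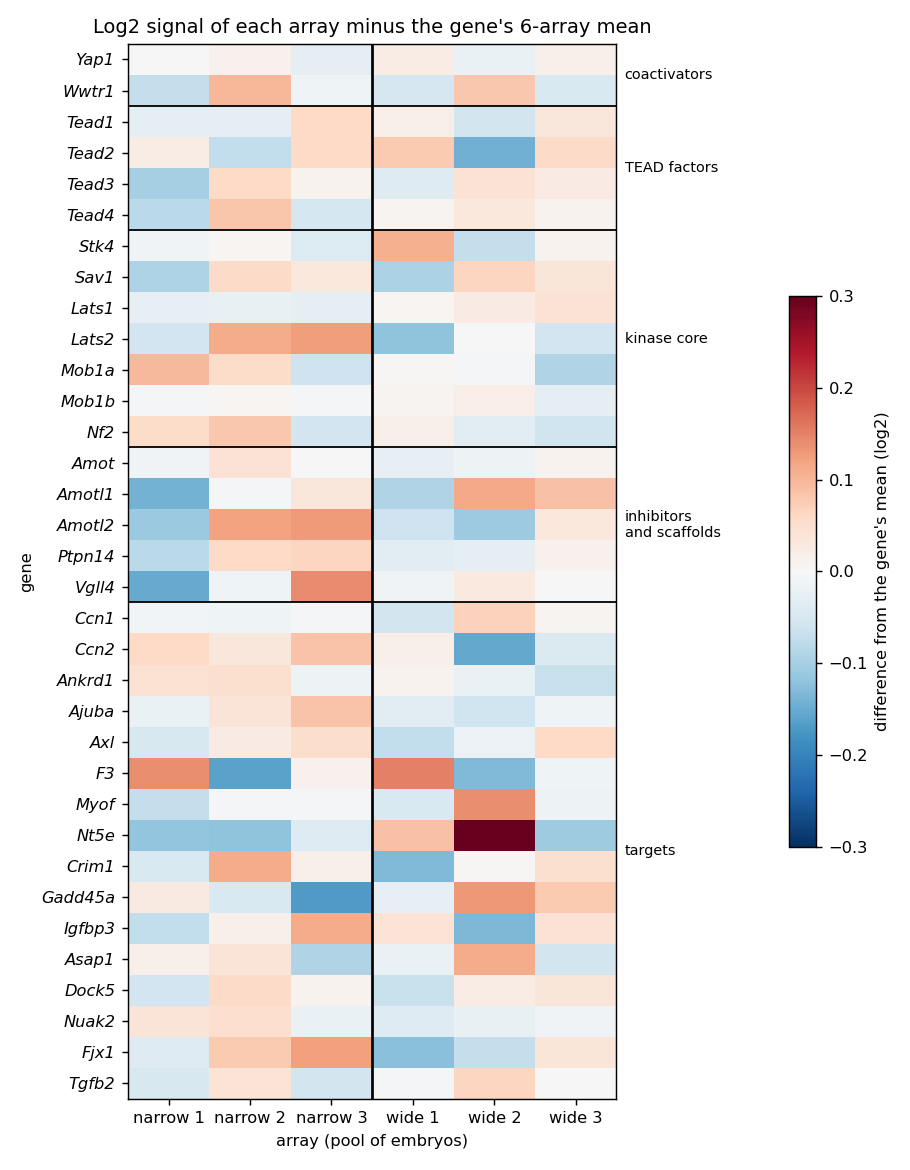
Signal of each of the 34 genes (rows, grouped by role) in each array (columns, narrow to the left of the line and wide to the right) minus the mean of that gene over the 6 arrays, on the log2 scale. No role group is red in all narrow and blue in all wide arrays, and F3 and Sav1 have matching colours in arrays of the same number.

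The replicate numbers were taken to pair the samples, which the labels do not state, and the fit was repeated with the number as a block. Again 0 of 34 genes had an adjusted p under 0.05, and the smallest was 0.674. Without adjustment, 3 of the 34 passed at p under 0.05 (8.82%, against 7.25% of all genes). These were Lats2 (0.12 ± 0.039), Fjx1 (0.11 ± 0.036) and Ccn2 (0.12 ± 0.042). In that direction 3.54% of all genes passed, and with negative differences 0 of the 34 did, against 3.72% of all genes. Each had an adjusted p of 0.674 over all genes.

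Other genes of the pathway did not pass the test either. Of 29 further measured genes linked to the pathway, 0 passed over all genes and 0 had an unadjusted p under 0.05. Their differences ran from -0.074 to 0.13 with a median of -0.018, 18 of them negative. The arrays of the cavities did not overlap for 4 of the 29 (13.8%, against 7.7% of all genes), 3 higher and 1 lower in narrow cavities, the last being the ubiquitin ligase Itch at -0.055 ± 0.040. Wwc2, a relative of the Hippo scaffold Kibra, had 10.94, 10.96 and 11.00 in narrow cavities, against 10.88, 10.88 and 10.89 in wide cavities, with no overlap and a difference of 0.082 ± 0.039. Vgll3, a TEAD cofactor, had a difference of 0.13 ± 0.076 and was the 1 of the 29 with an unadjusted p under 0.05 when the array number was a block (7.25% of all genes). Of 22 other measured genes listed as YAP targets, 0 passed over all genes and 1 passed without adjustment, Lhfpl6 at 0.12 ± 0.048 (1.68% of all genes did in that direction). Marcks, an actin-binding protein of the membrane, stood next at 0.086 ± 0.042. The median of these 22 was 0.015.

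The fate genes that TEAD4 and YAP control before implantation, Cdx2, Sox2 and Gata3, were examined as well. Cdx2, the trophectoderm factor, had signals of 10.51, 10.67 and 10.58 in narrow cavities, against 10.63, 10.75 and 10.70 in wide cavities. Its groups overlapped through narrow 2, with a difference of -0.10 ± 0.055. With the block it had an unadjusted p under 0.05, as 7.25% of all genes did (adjusted p = 0.674 with limma). Sox2, a pluripotency factor that YAP holds down in outer cells, had 10.85, 10.72 and 10.83 in narrow cavities, against 10.90, 10.92 and 10.88 in wide cavities. All narrow arrays of Sox2 lay below all wide ones (3.54% of all genes), by -0.095 ± 0.047, and 0 of the 3 genes passed over all genes. Gata3, the third, differed by 0.00079 ± 0.056.

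The tissues that make up the egg cylinder were checked through their markers. Of 6 extraembryonic ectoderm markers, 2 had negative differences at an unadjusted p under 0.05 (1.72% of all genes), Esrrb at -0.22 ± 0.045 and Bmp4 at -0.21 ± 0.077. Both had all narrow arrays below all wide ones (3.54% of all genes). The others went both ways. Tfap2c, at 0.093 ± 0.047, had all narrow arrays above all wide ones (4.17% of all genes). Cdx2 was negative as above, Elf5 stood at 0.040 ± 0.041 and Eomes near 0 at -0.00074 ± 0.041. The log2 of the summed signal of the 6 markers lay from 14.087 to 14.178 in narrow and from 14.145 to 14.204 in wide cavities. Of 10 visceral endoderm markers 1, Trf at 0.18 ± 0.048, was positive at that threshold (1.68% of all genes). Of these 10, 6 had negative differences. All narrow arrays lay above all wide ones for Trf (4.17% of all genes) and below them for Hnf4a (3.54%), at -0.064 ± 0.040. The summed level of the 10 lay from 15.463 to 15.505 in narrow and from 15.462 to 15.499 in wide cavities. Among 6 epiblast, 6 parietal endoderm, 4 measured trophoblast giant cell, 7 decidua, stroma and endothelium and 5 measured blood markers, 0 had an unadjusted p under 0.05. With the block, Nanog (-0.16 ± 0.048) among epiblast, Thbd (0.13 ± 0.045) among parietal endoderm and Rbp4 (0.18 ± 0.047) among visceral endoderm markers also had one. Each had an adjusted p of 0.674 over all genes, and 7.25% of all genes had such an unadjusted p with the block. The part of tissue shares in the values of the Hippo genes was not tested.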

How the data were processed

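Signals of 6 Affymetrix arrays were used, 3 per cavity, each from 30 pooled embryos. The deposited values are log2 signals, 1 per array feature and sample, with a scale read from their range. Array medians lay between 7.62 and 7.67, and the values were used without further scaling. Whether and how they were normalized before deposit is not stated in the labels. Probes were named through the platform annotation. Of 28853 features, 21789 named 1 gene, 1621 several and 5443 none, and the first kind covered 19938 genes. All 19938 were fitted with no filter on dim genes. Of the 34 measured genes described, 31 lay above the median signal, and Axl, Nt5e and Tgfb2 lay below it. Without a measure of background, absence could not be called, and levels of different genes were not compared. The number of arrays limits the precision.

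Narrow minus wide was tested with limma 3.58.1 in R 4.3.3 (lmFit, eBayes, two-sided, no covariate), with Benjamini-Hochberg adjustment over all genes at 0.05. The fit was tested on simulated data with independent noise in each array. Those data held no link between arrays of the same number, so they do not bear on pairing. An exact permutation test of 3 against 3 arrays cannot give a p below 0.1. The p-values measure the spread between pools. Deviations from group means correlated at 0.516, 0.176 and 0.272 between arrays numbered 1, 2 and 3, so numbers were taken to pair samples, although narrow 2 with wide 3 reached 0.178. The genes, lists and tests were chosen with earlier results of these data known. Values by array were given for Yap1, Wwtr1, Tead4, Ccn1, Ccn2, Ankrd1, for the genes of smallest unadjusted p in each role group and for those whose groups did not overlap. F3 and Sav1 were chosen after their values were seen.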

Additional observations from a re-analysis of the deposited data

How the results depend on the processing

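Under every alternative tried, 0 of the 34 genes and 0 of all genes had an adjusted p under 0.05 by limma or by a test with unequal variances. At an adjusted threshold of 0.1 the fit without a block called 0; with the block the smallest adjusted p was 0.674 among the 34 and 0.0838 over all genes. The counts without adjustment moved. The 0 genes at an unadjusted p under 0.05 became 3 with the replicate number as a block (7.25% of all genes), 4 without both arrays numbered 1 (4.58%; Lats2, Amotl2, Ccn2 and Gadd45a), and 1, Ccn2, with a variance trend (3.03%), with arrays centred on their medians (3.79%) and above the 50th percentile of signal (3.85%). With unequal variances 1, Lats1, passed (2.39%). Leaving out each array gave 0 to 4, with 4 without narrow 1 (4.97% of all genes), 2 without wide 1 (4.18%) or wide 3 (3.16%) and 0 otherwise. The 2 genes whose groups did not overlap became 4 with arrays centred on their medians (8.96% of all genes), 11 without both arrays numbered 1 (where 33.3% of all genes do not overlap), and 4 to 8 without single arrays (14.5% to 20.4% of all genes), as fewer arrays overlap less often. The median difference of 0.0045 ranged from -0.0011 to 0.029, and was 0.029 without narrow 1. At an adjusted threshold of 0.05 the block changed no call over all genes. Of 439 values of single genes under the alternatives, 403 kept their sign and 36 changed it, in 16 genes. The 439 include the block, the variance trend and the signal filter, which leave the difference of a gene as it was. They also include the mean over all features of a gene, which altered Tead1 alone. Values left as they were could not change sign, so the 403 are not a measure of agreement. Leaving out 1 of the 3 arrays of a group cannot move a difference by the SD within groups. For those settings, that 0 values moved so far is therefore not a measure of stability. Leaving out both arrays numbered 1 or rescaling the arrays can move a difference that far, and 0 values did so. The largest difference was that of Nt5e at -0.29 without wide 3.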
